A study of Mus musculus with 41 samples.

Results

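Surgical castration of male mice sets off regrowth of the thymus, and the 2 stromal fractions of the organ did not answer it alike. Described here is how the castration effect on each gene differed between thymic epithelial cells (TEC) and the remaining stromal cells (nonTEC), not the effect in either fraction alone. For each gene the castrated minus sham difference was averaged over days 4 and 7 in each fraction, and the nonTEC average was subtracted from the TEC average. This quantity is called the difference below, in log2 units. A positive difference means that castration moved the gene further upward, or less far downward, in TEC than in nonTEC. It draws on 23 of the 41 arrays of the series, 12 of TEC and 11 of nonTEC. Of 24671 probes, 21242 carried values in TEC, 21815 in nonTEC and 18386 in both, and the probes in both cover 10543 genes. The 8487 genes whose mean lay above 6.73, the median of all values, in at least 1 group were tested with limma, and the others were left out as too dim.

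All mice of the 8 groups were C57Bl/6 males of 9 to 12 months. Cells were sorted as CD45-negative, so that blood-derived cells should be removed, and were split by the surface protein EpCAM into EpCAM-positive TEC and EpCAM-negative nonTEC. In each fraction the labels give castrated mice at day 4, sham-castrated mice at day 4, castrated mice at day 7 and sham-castrated mice at day 7 after surgery, with 3 arrays a group except the day 7 sham group of nonTEC, which has 2. The sham mice had surgery at the same age without loss of the testes, so a difference refers to castration on top of surgery. Nothing in the labels says that the arrays of a group came from separate mice or pools of mice, so that a p-value here speaks for the spread between arrays, which may be technical.

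The epithelium of the thymus guides T cell development. Its cortical part sustains and selects immature thymocytes, and its medullary part shows them a broad set of self antigens under the regulators Aire and Fezf2. The nonTEC stroma is mostly fibroblasts, endothelium and pericytes, which supply growth factors, matrix and blood vessels to the epithelium. Androgens from the testes hold the adult thymus small, and their removal is a standard way to make an aged thymus grow again.

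The sorted fractions carried their own markers. Krt8, an epithelial keratin, lay between 12.89 and 13.65 on the TEC arrays and between 7.02 and 9.41 on the nonTEC arrays, and Pdgfra, a fibroblast receptor, lay between 5.55 and 9.11 in TEC and between 12.16 and 12.94 in nonTEC. The fractions appear to have been normalized separately, so that levels are set side by side here only for orientation. Markers of blood cells were present in both fractions in spite of the CD45 gate. The T cell receptor subunit Cd3e lay between 6.49 and 10.64 in TEC and between 8.04 and 11.29 in nonTEC. The mean of the 7 pan-leukocyte genes lay between 9.71 and 10.92 on the TEC arrays. In nonTEC it was 9.69, 8.98 and 8.21 on the castrated day 4 arrays against 7.38 to 7.72 in sham, and 8.48 to 8.93 against 8.11 to 8.24 at day 7. The mean of the thymocyte list in nonTEC was likewise 10.24, 9.34 and 8.61 against 7.63 to 8.0 at day 4 and 8.91 to 9.34 against 8.39 to 8.50 at day 7. These 2 lists were thus higher in castrated nonTEC than in sham nonTEC without overlap, and highest there on castrated day 4 array 1. Other blood cell lists were not all so. The B-lineage and the myeloid means of castrated and sham nonTEC overlapped at both days. The erythroid mean overlapped at day 4 (10.84 to 12.05 castrated, 11.17 to 11.72 sham). At day 7 it was 11.37 to 11.88 in castrated against 11.30 to 11.33 in sham nonTEC. In TEC, sham day 4 array 3 stood apart, with a fibroblast mean of 8.96 against at most 8.11 on every other TEC array compared.

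**Figure D1:**
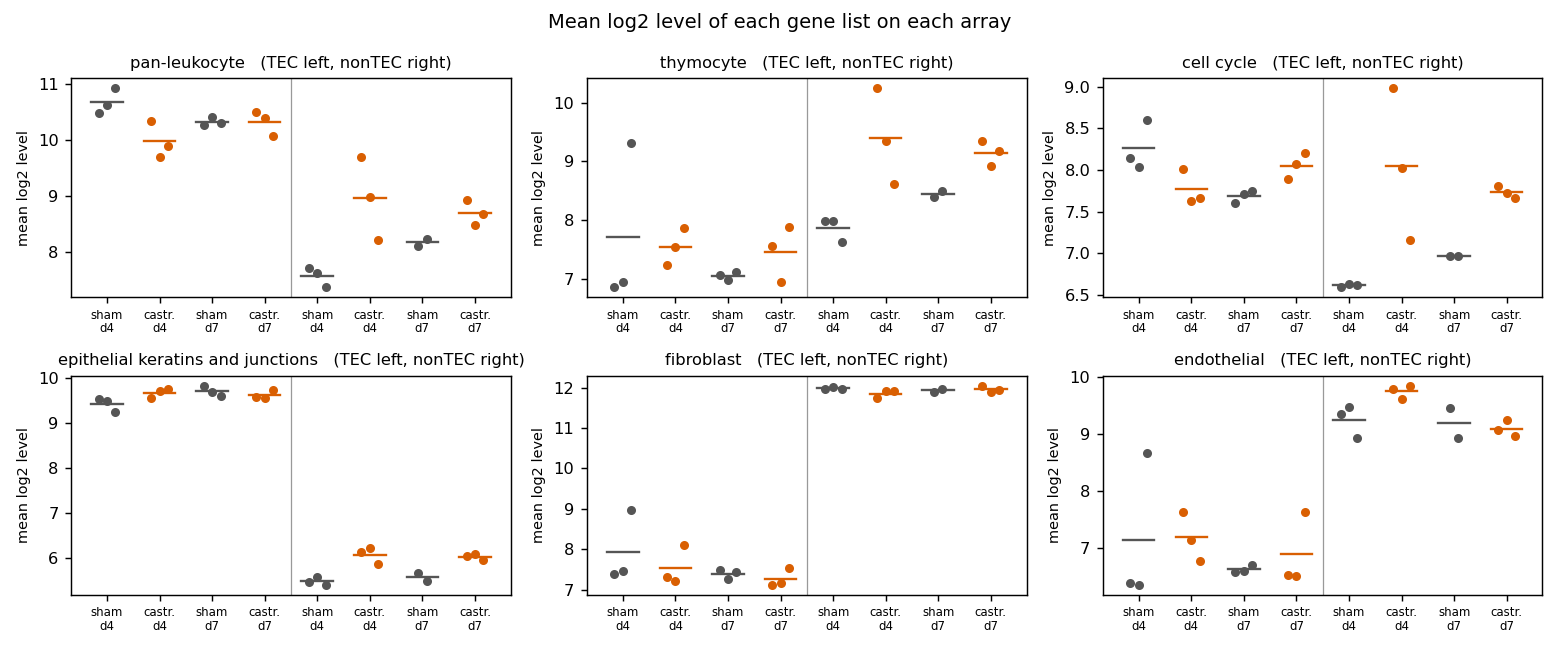
Mean log2 level of 6 marker lists (y axis) on each array of the 8 groups (x axis), with TEC left and nonTEC right of the line in each panel; grey points are sham arrays, orange points castrated arrays and bars group means. In nonTEC the pan-leukocyte, thymocyte, cell cycle and keratin means of castrated arrays lie above those of sham arrays at both days, while the fibroblast means of nonTEC stay between 11.75 and 12.04.

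For most of the genes that differed, the estimated castration effects had opposite signs in the 2 fractions. At an adjusted p under 0.05, 513 of 8487 genes (6.04%) differed, 312 of them with a higher effect in TEC (3.68%) and 201 with a lower one (2.37%). Genes called higher or lower in TEC below are so by this castration effect, not by their level. Among the 312 higher genes the 2 effects had opposite signs for 287, which is 92%, and among the 201 lower genes for 168, which is 83.6%, where 49.5% of all genes tested had opposite signs. A gene with opposite effects has a larger difference, so that these shares describe the calls and test nothing. Signs are those of the estimates, whether or not each effect passed on its own. An effect could be small in 1 fraction, as for Timp3 with 0.02 in TEC and -0.53 in nonTEC. The median difference was 0.86 over the higher genes, from a median effect of 0.48 in TEC and -0.32 in nonTEC, and -1.05 over the lower genes, from -0.38 in TEC and 0.44 in nonTEC. The median over all genes was 0.05. Across genes the TEC effect and the nonTEC effect were nearly unrelated (Pearson r = 0.057 over 8487 genes, which are not independent and share the arrays of their fraction).

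The 513 genes fall into 4 sets by direction and by the fraction with the larger effect. Of the 312 higher genes, 200 had their larger effect in TEC, where it was positive, and 112 had it in nonTEC, where it was negative. Of the 201 lower genes, 103 had the larger effect in TEC, a negative one, and 98 had it in nonTEC, a positive one. A difference of at least 2-fold was reached by 93 higher and 109 lower genes. Some of these genes were dim in 1 fraction. Of the 112 higher genes with the larger effect in nonTEC, 31 (27.7%) had no compared TEC group above 6.73, against 14.7% of all genes tested. Of the 103 lower genes with the larger effect in TEC, 21 (20.4%) had no compared nonTEC group above it, against 12.4% of all genes. In these genes the smaller effect may be understated. The fraction with the smaller effect was that dim for 9.5% of the 200 higher genes with the larger effect in TEC and for 6.12% of the 98 lower genes with the larger effect in nonTEC, where it was for 13.8% of all genes. The count of 513 depended on single arrays. It was 1105 without castrated TEC day 4 array 1, 317 without castrated TEC day 4 array 2, 328 without castrated nonTEC day 4 array 1, and 233 or 214 without array 1 or 2 of the day 7 nonTEC sham group.

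**Figure D2:**
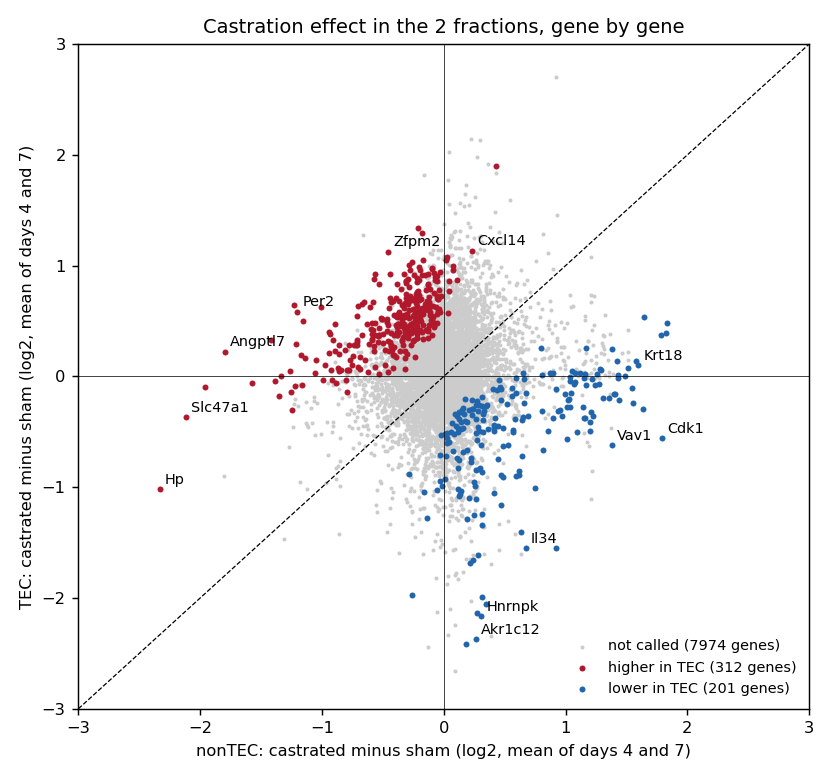
Castration effect in nonTEC (x axis, log2) against castration effect in TEC (y axis, log2), each the mean of the day 4 and day 7 differences from sham, for the 8487 genes tested; coloured points are the 312 genes with a higher and the 201 with a lower effect in TEC. The called genes lie off the diagonal, and those with opposite effects, 287 of 312 and 168 of 201, lie to the upper left and the lower right of the origin.

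Among the genes with a higher effect in TEC, the largest differences came from genes that fell in nonTEC. Angptl7, a secreted angiopoietin-like protein of fibroblasts and matrix, had the largest difference. In nonTEC it lay at 6.95, 6.85 and 8.04 in sham and 5.68, 6.12 and 5.40 in castrated mice at day 4, and at 7.58 and 8.05 against 5.84, 5.91 and 5.52 at day 7. The TEC arrays of Angptl7 lay between 7.72 and 8.61 in sham and between 8.32 and 8.76 in castrated mice. Castrated nonTEC arrays were below all sham nonTEC arrays of their day, and the TEC groups overlapped. The difference was 2.02 (SE 0.37, limma adjusted p = 0.00176), from -1.80 in nonTEC (adjusted p = 6.8e-05) and 0.22 in TEC (adjusted p = 0.562). A second, dimmer probe of Angptl7 gave 0.93.

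Slc47a1, an exporter of organic cations and drugs, fell in nonTEC. Its sham arrays lay between 8.04 and 8.52 there, and its castrated arrays at 6.29, 6.80 and 5.96 at day 4 and 6.26, 5.91 and 5.49 at day 7. The TEC arrays lay between 8.09 and 9.23 in all groups. The nonTEC groups were more than 1 log2 unit apart at both days, while in TEC the groups overlapped at day 4 and castrated arrays were below sham arrays at day 7. The difference was 1.75 (SE 0.27, adjusted p = 0.000509), with a nonTEC effect of -2.12 (adjusted p = 2.57e-08) and a TEC effect of -0.37 (adjusted p = 0.154).

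Per2, a repressor of the circadian clock, moved in opposite directions, and both effects passed the test. In nonTEC its sham arrays lay at 8.48, 8.58 and 8.56 at day 4 and 8.68 and 8.36 at day 7, and its castrated arrays at 7.48, 6.60 and 7.05 and at 7.69, 7.61 and 7.51. In TEC the sham arrays lay at 7.95, 7.82 and 7.35 and at 8.17, 7.66 and 7.59, and the castrated arrays at 7.95, 8.38 and 8.86 and at 8.38, 8.26 and 8.21. Castrated arrays were thus below sham in nonTEC at both days, above sham in TEC at day 7, and touched the sham range in TEC at day 4. Per2 fell by 1.21 in nonTEC (adjusted p = 0.000657) and rose by 0.58 in TEC (adjusted p = 0.0456), which gives a difference of 1.79 (SE 0.30, adjusted p = 0.000921). Its second probe gave 1.68. Of the 11 circadian clock genes tested, Per2 alone passed (9.09%, against 6.04% of all genes). Its relative Per1 had a difference of 0.91 (adjusted p = 0.0507), Cry2 one of 0.75 (adjusted p = 0.0743) and Arntl, the activator they repress, one of 0.57 (adjusted p = 0.268), and the median of the list was 0.43.

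Pkp2, a plaque protein of desmosomes, also moved both ways. In nonTEC it lay between 6.04 and 6.38 in sham and between 4.78 and 5.75 in castrated mice, which is under the floor of 6.73. The TEC values of Pkp2 lay between 6.52 and 7.71 in sham and between 7.72 and 8.26 in castrated mice. The 4 pairs of groups did not overlap. The difference was 1.64 (SE 0.28, adjusted p = 0.00102), from -1.01 in nonTEC (adjusted p = 0.0019) and 0.63 in TEC (adjusted p = 0.024). Its other probes were dimmer and gave 0.73 and -0.36.

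Gpx3, a secreted glutathione peroxidase that removes peroxides outside cells, was among the brightest of these genes. In nonTEC its sham arrays lay between 13.19 and 13.45, and its castrated arrays at 12.29, 12.83 and 12.52 at day 4 and 11.94, 12.19 and 12.30 at day 7, without overlap. In TEC all arrays lay between 12.67 and 13.36 except sham day 4 array 3 at 11.87. The difference was 1.08 (SE 0.25, adjusted p = 0.0122), with a nonTEC effect of -0.98 (adjusted p = 0.00111). Sult5a1, a sulfotransferase, had a difference of 1.87 (adjusted p = 0.00751) with a nonTEC effect of -1.23, while its other probe gave 0.57.

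A further group of genes fell in nonTEC, with TEC levels near or under the floor. Hpca, a neuronal calcium sensor, had the smallest adjusted p of all genes, 0.000386, at a difference of 1.86 (SE 0.27), and its nonTEC level went from between 7.18 and 7.81 in sham to between 4.85 and 6.31 in castrated mice. Capn6, a calpain without protease activity, had a difference of 1.75 (adjusted p = 0.000935). Bmper, a secreted modulator of bone morphogenetic proteins, had one of 1.66 (adjusted p = 0.000706), and Popdc2, a membrane protein of muscle, one of 1.5 (adjusted p = 0.00128). Slc6a13, a transporter of GABA and taurine, had one of 1.52 (adjusted p = 0.00256). Its TEC arrays lay between 6.61 and 7.23, and its castrated and sham nonTEC arrays overlapped at day 4. In TEC the effects of these 5 genes ranged from -0.09 to 0.50 and none passed the test there, at a depth of signal that could hide a small change.

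**Figure D3:**
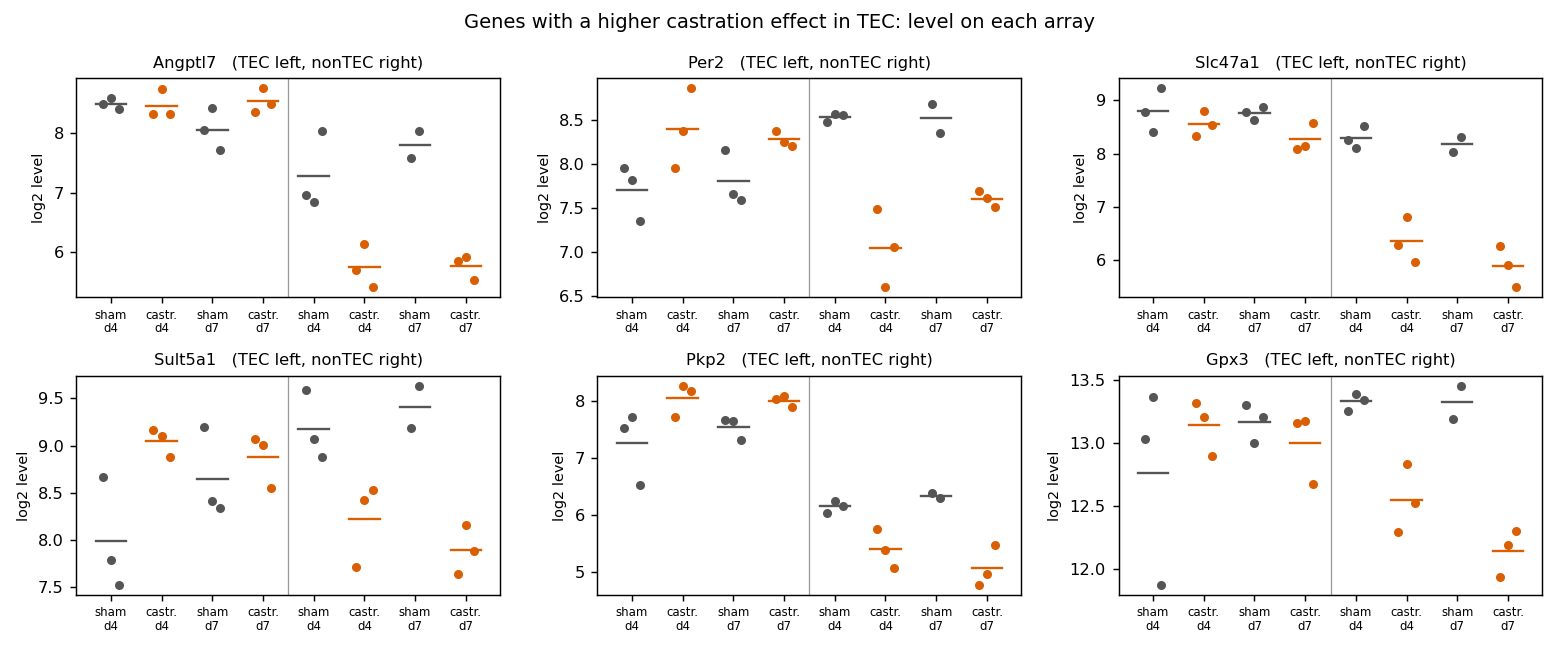
Log2 level (y axis) of 6 genes with a higher castration effect in TEC, on every array of the 8 groups (x axis), TEC left and nonTEC right; grey points are sham arrays, orange points castrated arrays and bars group means. Castrated nonTEC arrays lie below sham nonTEC arrays for all 6 genes at both days, and the difference is 2.02 for Angptl7, 1.79 for Per2, 1.75 for Slc47a1, 1.87 for Sult5a1, 1.64 for Pkp2 and 1.08 for Gpx3.

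Hp, haptoglobin, which binds free haemoglobin, fell in both fractions and further in nonTEC. In nonTEC it lay between 10.70 and 10.96 in sham, at 8.36, 9.12 and 8.97 in castrated mice at day 4 and at 7.88, 8.20 and 8.50 at day 7. In TEC it lay between 8.16 and 9.53 in sham and between 7.08 and 8.11 in castrated mice. No group of castrated arrays overlapped its sham group. The effects were -2.33 in nonTEC (adjusted p = 2.39e-06) and -1.02 in TEC (adjusted p = 0.00939), with a difference of 1.32 (SE 0.37, adjusted p = 0.0323). Its 2 other probes gave 1.22 and 0.71, and the mean of the probes gave 1.08 (adjusted p = 0.0622).

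Smaller differences of this kind were found for signalling and matrix genes. Egfr, the receptor of epidermal growth factor, fell by 0.48 in nonTEC (adjusted p = 0.00682) and had a difference of 0.72 (adjusted p = 0.0062); its sham nonTEC arrays lay between 10.91 and 11.30 and its castrated ones between 10.43 and 10.78. Its 4 other probes gave between 0.20 and 0.68. The difference was positive for all 12 growth factor receptors tested and for 4639 of all 8487 genes. Of the 12, Egfr alone passed (8.33%, against 6.04% of all genes), and their median was 0.32. Hmox1, haem oxygenase, had a difference of 1.0 (adjusted p = 0.032) with a nonTEC effect of -0.71, and Timp3, an inhibitor of matrix proteases, one of 0.55 (adjusted p = 0.022) with a nonTEC effect of -0.53.

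Other genes had a higher effect in TEC because of a rise there. Zfpm2, a cofactor of GATA factors, rose by 1.13 in TEC (adjusted p = 0.000708). Its TEC arrays lay between 5.11 and 5.51 in sham and between 6.18 and 6.80 in castrated mice, without overlap and below or near the floor. Its nonTEC arrays lay between 8.36 and 8.94 in sham and between 7.81 and 8.84 in castrated mice, with overlap. The difference was 1.58 (SE 0.29, adjusted p = 0.00176).

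Carmil3, a regulator of actin capping, lay in TEC at 7.82, 8.27 and 6.82 in sham and 8.69, 9.80 and 9.14 in castrated mice at day 4, and at 7.80, 7.88 and 7.52 against 8.73, 8.65 and 9.10 at day 7. Castrated TEC arrays were above sham at both days, and the nonTEC arrays, between 4.53 and 5.62, were under the floor. The 3 highest TEC values were on castrated day 4 arrays 2 and 3 and day 7 array 3, which are described below. The difference was 1.55 (SE 0.32, adjusted p = 0.00572), with a rise of 1.34 in TEC. Spag9, a scaffold of stress kinases, rose by 1.3 in TEC. It had a difference of 1.48 (adjusted p = 0.031), while its other, dimmer probes gave between 0.06 and 0.75. Lurap1l had one of 1.49 (adjusted p = 0.013) and rose by 0.92. The chemokine Cxcl14 rose by 1.13 in TEC and had a difference of 0.90 (adjusted p = 0.0437), a call that was lost when most single arrays were left out.

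Receptors of the interleukin-6 family had a higher castration effect in TEC. Il6st encodes the shared signalling chain gp130, Lifr the receptor of leukaemia inhibitory factor and Osmr that of oncostatin M. Il6st lay in TEC at 7.87, 7.25 and 7.44 in sham and 8.42, 8.89 and 8.72 in castrated mice at day 4, and at 8.29, 7.64 and 8.14 against 8.26, 8.25 and 8.58 at day 7. The groups were apart at day 4 and overlapped at day 7. Il6st rose by 0.75 in TEC (adjusted p = 0.00104) with a nonTEC effect of -0.08, and its difference was 0.83 (SE 0.20, adjusted p = 0.0142). The difference was 1.04 for Lifr (adjusted p = 0.0235), whose other probes gave 1.31 and 0.81, and 1.29 for Osmr (adjusted p = 0.0376). Of the 14 acute phase and interleukin-6 family genes tested, 4 were higher (Il6st, Lifr, Osmr and Hp) and 1 lower (Orm1), with a median of 0.42. The share called was 35.7%, against 6.04% of all genes. Socs3, the feedback inhibitor of the pathway, had a difference of 0.59 (adjusted p = 0.0562), and the pathway's transcription factor Stat3 one of 0.51 (adjusted p = 0.311). Without castrated TEC day 4 arrays 2 and 3 and day 7 array 3, which are described below, no gene of this list was called higher and 1 stayed lower.

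Immediate early genes, which respond within minutes to growth signals and also to tissue handling, had a median difference of 0.48 over 16 genes. Of these 2 passed (12.5%, against 6.04% of all genes), both higher. Fosb, a subunit of the AP-1 transcription factor, lay in TEC at 10.95, 11.22 and 10.06 in sham against 11.47, 11.73 and 12.22 in castrated mice at day 4, and at 11.17, 10.74 and 10.97 against 11.78, 11.47 and 12.17 at day 7. Castrated TEC arrays were above sham at both days, and nonTEC arrays, between 11.71 and 13.34, overlapped at both days. The difference was 1.15 (SE 0.26, adjusted p = 0.00944). Egr2 had one of 0.83 (adjusted p = 0.0183), Klf4 one of 1.12 (adjusted p = 0.0503) and Junb one of 0.59 (adjusted p = 0.0579), whereas Fos, at 0.99, had an adjusted p of 0.331. Without the same 3 TEC arrays none of the 16 was called and the median was 0.21.

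Among interferon response genes 2 of 20 were higher in TEC (10% called, against 6.04% of all genes). They were Ifit2 at 0.63 (adjusted p = 0.0425) and the signal transducer Stat2 at 0.79 (adjusted p = 0.0482), and the median of the list was 0.36. Ifit2 lost its call in 15 and Stat2 in 16 of the 23 fits that left out 1 array, none of the 20 was called without castrated TEC day 4 arrays 2 and 3 and day 7 array 3, and the median was 0.10 with the mean of probes. Of 13 Wnt pathway genes 1 passed (7.69%, against 6.04% of all genes). Axin2, a feedback target of Wnt signalling, rose by 0.48 in TEC and had a difference of 0.75 (adjusted p = 0.0199). In nonTEC its castrated arrays were below sham at day 4 and above sham at day 7, so its mean nonTEC effect joins opposite movements. Of the 9 steroid receptors and their target genes tested 2 were higher and none lower (22.2% called, against 6.04% of all genes). Esr1, the oestrogen receptor, had a difference of 0.76 (adjusted p = 0.0392) at TEC levels from 4.39 to 5.70, under the floor. Tsc22d3, a target of glucocorticoids, had one of 0.55 on its brightest probe but -1.16 on another, and its direction is therefore not settled. Fkbp5, a target of both androgen and glucocorticoid receptors, had a difference of 0.11 with a 95% confidence interval from -0.18 to 0.39.

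Genes of cell division were among those with a lower effect in TEC. Of the 15 cell cycle genes tested 7 were lower in TEC and none higher, against 2.37% of all genes lower. These 7 rose in nonTEC and did not pass the test in TEC. All 15 differences were negative, against 3848 of all 8487 genes tested. The median of the list was -1.25, from a median effect of 1.31 in nonTEC and -0.08 in TEC. In a bulk sample more cells of a dividing type and more RNA of these genes per cell cannot be told apart. Cdk1, the kinase that drives entry into mitosis, lay in nonTEC at 5.19, 4.81 and 5.25 in sham and 8.35, 7.38 and 6.5 in castrated mice at day 4, and at 5.73 and 5.58 against 7.04, 6.87 and 6.79 at day 7. In TEC it lay between 8.0 and 9.04 in sham, between 8.07 and 8.94 in castrated mice at day 7, and at 8.90, 6.55 and 6.67 at day 4. Castrated nonTEC arrays were above all sham arrays, and in TEC castrated day 4 arrays 2 and 3 were low. Cdk1 had the largest difference of the list, -2.35 (SE 0.43, adjusted p = 0.00176), and rose by 1.79 in nonTEC (adjusted p = 0.000491). Without those arrays and castrated TEC day 7 array 3 it was -1.45 and still called.

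Aurka, the spindle pole kinase, lay in nonTEC at 5.52, 5.47 and 4.88 in sham and 8.38, 6.85 and 6.31 in castrated mice at day 4, and at 6.15 and 5.75 against 7.11, 6.87 and 6.83 at day 7. In TEC it lay between 8.47 and 8.73 in sham and between 7.77 and 7.98 in castrated mice at day 4, and between 7.31 and 7.99 against 7.86 and 8.05 at day 7. Castrated arrays were above sham in nonTEC at both days, below sham in TEC at day 4 and overlapping in TEC at day 7. The difference was -1.65 (SE 0.31, adjusted p = 0.0023), from a rise of 1.44 in nonTEC. Prc1, which bundles the microtubules of the dividing cell's midzone, had a difference of -1.29 (SE 0.29, adjusted p = 0.00865) and rose by 1.42 in nonTEC. The chromosomal passenger subunits Birc5, at -1.56 (adjusted p = 0.0141), and Cdca8, at -1.45 (adjusted p = 0.0287), were lower as well, as were Cdca3, a trigger of mitotic entry, at -1.56 (adjusted p = 0.0149) and the centromeric histone Cenpa at -1.25 (adjusted p = 0.0198). The S phase genes Pclaf, at -1.92 (adjusted p = 0.00572), Rrm2, the small subunit of ribonucleotide reductase, at -1.34 (adjusted p = 0.015) and the replication helicase subunit Mcm5 at -1.07 (adjusted p = 0.022) went the same way. Of 19 DNA replication genes 2 were lower and none higher (10.5% called, against 6.04% of all genes), with a median of -0.37.

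The promoters of these genes are shown because the called cell cycle genes moved together. Mitotic genes are typically switched on through a CCAAT box, bound by the factor NF-Y, and a cell cycle homology region (CHR), bound by the DREAM and MuvB complexes. In 300 bases around the gene start (250 before and 50 after, from RefSeq, GRCm38.p6), the letters CCAAT for the box and, for the CHR, TTTGAA were searched on both strands. Both motifs were present in 6 of the 7 called cell cycle genes, all but Birc5, which held neither. They were both present in 11 of the 14 tested cell cycle genes with a sequence (78.6%) and in 2284 of 32851 promoters (6.95%); the CCAAT box stood in 37.4% and the CHR in 17.9% of all. The letters overlapped each other in Cdca8 and in no other called gene of the list. The promoters of Cdk1, Aurka and Prc1 follow, 5′ to 3′ on the gene's strand, with the letters of both motifs, on either strand, in capitals. They lie at chr10:69352863-69353162 (minus strand), chr2:172370521-172370820 (minus strand) and chr7:80294201-80294500 (plus strand). Prc1 has 2 promoter entries, of which the first is printed. A match describes the sequence and shows no binding.
Cdk1: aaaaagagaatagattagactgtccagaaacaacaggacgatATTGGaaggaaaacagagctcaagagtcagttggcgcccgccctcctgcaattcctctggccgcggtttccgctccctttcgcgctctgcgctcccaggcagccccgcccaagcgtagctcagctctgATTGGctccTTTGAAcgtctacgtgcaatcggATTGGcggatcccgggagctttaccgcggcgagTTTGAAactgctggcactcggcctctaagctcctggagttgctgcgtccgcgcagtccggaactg
Aurka: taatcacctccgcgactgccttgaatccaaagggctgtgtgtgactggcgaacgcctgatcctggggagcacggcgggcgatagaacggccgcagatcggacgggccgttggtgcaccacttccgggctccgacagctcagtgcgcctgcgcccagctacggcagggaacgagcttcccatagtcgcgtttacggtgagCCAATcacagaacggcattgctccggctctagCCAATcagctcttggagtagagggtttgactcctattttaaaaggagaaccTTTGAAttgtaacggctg
Prc1: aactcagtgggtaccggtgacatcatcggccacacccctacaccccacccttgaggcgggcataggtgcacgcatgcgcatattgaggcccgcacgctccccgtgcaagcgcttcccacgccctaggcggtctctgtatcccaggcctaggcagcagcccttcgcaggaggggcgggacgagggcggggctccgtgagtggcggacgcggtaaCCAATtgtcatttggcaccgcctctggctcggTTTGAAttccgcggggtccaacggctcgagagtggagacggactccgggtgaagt

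Several blood cell genes had a lower castration effect in TEC too. Of 7 pan-leukocyte genes 5 were lower in TEC and none higher (71.4% called, against 6.04% of all genes). The median of the list was -1.28, from 0.96 in nonTEC and -0.30 in TEC. Rac2, a GTPase of blood cells, lay in nonTEC at 5.71, 5.30 and 5.02 in sham and 8.20, 7.07 and 6.49 in castrated mice at day 4, and at 6.00 and 6.31 against 7.10, 6.48 and 6.34 at day 7. In TEC it lay between 8.48 and 9.06 in sham and at 7.97, 7.40 and 7.66 in castrated mice at day 4, and between 7.97 and 8.59 in both groups at day 7. Castrated arrays were above sham in nonTEC at both days, by little at day 7, and below sham in TEC at day 4. The difference was -1.69 (SE 0.30, adjusted p = 0.00168), with a rise of 1.20 in nonTEC (adjusted p = 0.000879). Cd52, Laptm5, Arhgdib and the phosphatase Ptpn6 were the other called genes, with differences of -1.28, -1.13, -0.62 and -1.26. Outside the list Vav1, an exchange factor for Rac proteins in blood cells, had one of -2.0 (adjusted p = 0.00454). Dntt, the terminal transferase of thymocytes, had one of -1.22 (adjusted p = 0.0393) and rose by 1.29 in nonTEC, at TEC levels under the floor. It was the 1 called gene of 7 thymocyte genes (14.3%, against 6.04% of all genes), whose median was -1.22. H2-Oa, which tunes loading of MHC class II, had a difference of -1.23 (adjusted p = 0.00403). It lay between 12.00 and 12.58 in TEC and between 4.99 and 6.97 in nonTEC. Whether its rise in nonTEC came from blood cells or from epithelial cells was not tested. Lrmp and Plcb2, which are also expressed by tuft cells, had differences of -1.5 (adjusted p = 0.0272) and -1.25 (adjusted p = 0.0269).

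The cell cycle, pan-leukocyte and thymocyte lists ranked the castrated day 4 arrays of nonTEC alike. The cell cycle mean in nonTEC was 8.98, 8.02 and 7.16 on castrated day 4 arrays 1, 2 and 3 against 6.59 to 6.63 in sham, the same order as the pan-leukocyte and thymocyte means. Of the 98 lower genes with the larger effect in nonTEC, 67 (68.4%) had their highest nonTEC value on castrated day 4 array 1, where 13.6% of all genes did. The 98 were chosen by an effect that uses this array, so the share describes the calls and tests nothing. Without that array 6 cell cycle genes and 3 pan-leukocyte genes were called, with medians of -1.0 and -1.09. With the pan-leukocyte mean of each array as a covariate, with a slope per fraction, none of the 8487 genes was called by limma, 601 had an unadjusted p under 0.05, and the median of the cell cycle list was -0.03. The keratin and junction mean as a covariate left none called and 796 with an unadjusted p under 0.05. The thymocyte mean left 16 called. Called members of these lists are part of the means, so the loss of their own calls tests nothing. These means themselves differ between castrated and sham nonTEC, so the covariate and castration cannot be told apart in these fits, which were added after seeing the data.

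Keratins of the epithelium rose in nonTEC as well, where they are not among the fraction's own markers. Krt18, a keratin of simple epithelia, lay in nonTEC at 6.76, 6.57 and 6.35 in sham and 8.56, 8.89 and 8.05 in castrated mice at day 4, and at 7.14 and 6.62 against 8.30, 7.98 and 8.14 at day 7. In TEC it lay between 12.37 and 13.07 in all groups. Castrated nonTEC arrays were above sham without overlap at both days, and the TEC groups overlapped. The difference was -1.5 (SE 0.26, adjusted p = 0.00138), from a rise of 1.60 in nonTEC (adjusted p = 2.78e-06) and a TEC effect of 0.10. Its partner Krt8 had a difference of -1.14 (adjusted p = 0.0142) and rose by 1.38 in nonTEC. Krt17, a keratin of basal and medullary epithelium, had a difference of -1.48 (adjusted p = 0.00572) and rose by 1.48 in nonTEC, while its TEC values, from 13.86 to 14.34, were near the highest value of any TEC array, 14.67, so that a rise there might not be measured. Tbata, a gene of cortical epithelium, rose by 1.83 in nonTEC and had a difference of -1.35 (adjusted p = 0.0215), at TEC values between 13.18 and 14.08. Ccl25, the chemokine that draws thymocyte precursors, rose by 1.46 in nonTEC (adjusted p = 0.00539), and its difference of -1.25 had an adjusted p of 0.0818.

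Of the 11 epithelial keratin and junction genes tested 3 were lower and none higher, Krt18, Krt8 and Krt19, with a median of -0.31. The share called was 27.3%, against 6.04% of all genes. The list's mean in nonTEC was 5.85 to 6.22 in castrated and 5.39 to 5.57 in sham mice at day 4, and 5.93 to 6.07 against 5.47 to 5.65 at day 7, without overlap at either day. On the TEC arrays the list's mean was between 9.25 and 9.83. The part of epithelial cells within the nonTEC sort in these results was not tested.

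**Figure D4:**
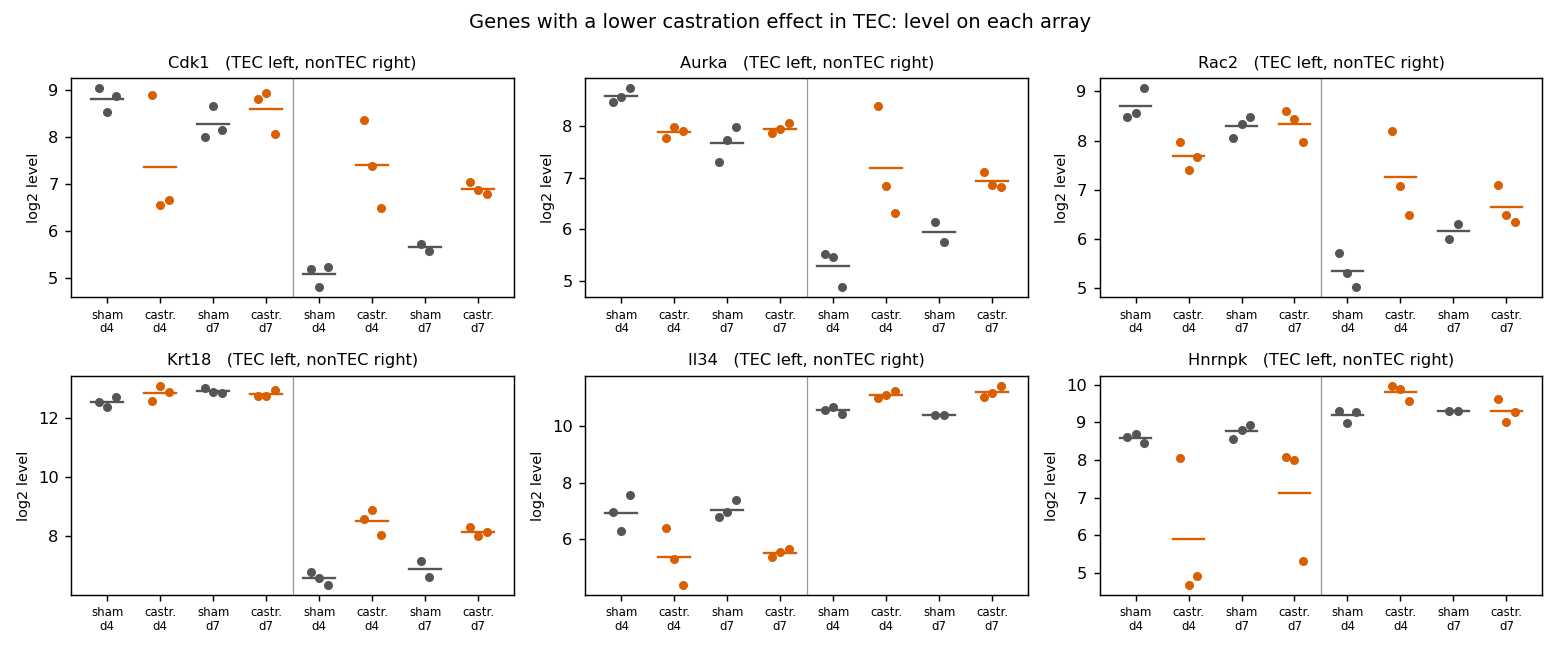
Log2 level (y axis) of 6 genes with a lower castration effect in TEC, on every array of the 8 groups (x axis), TEC left and nonTEC right; grey points are sham arrays, orange points castrated arrays and bars group means. Cdk1, Aurka, Rac2 and Krt18 are higher in castrated nonTEC at both days, Il34 is lower on average in castrated TEC, and Hnrnpk falls to 4.68, 4.93 and 5.32 on 3 castrated TEC arrays only.

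Of the 201 lower genes, 103 had the larger effect in TEC, where it was a fall. Il34, a cytokine that sustains macrophages through the CSF1 receptor, lay in TEC at 6.94, 6.28 and 7.58 in sham and 6.4, 5.29 and 4.39 in castrated mice at day 4, and at 6.80, 6.97 and 7.37 against 5.37, 5.55 and 5.64 at day 7. In nonTEC it lay at 10.56, 10.68 and 10.44 against 11, 11.09 and 11.23 at day 4, and at 10.41 and 10.40 against 11.03, 11.16 and 11.42 at day 7. Castrated arrays were above sham in nonTEC at both days and below sham in TEC at day 7, with overlap in TEC at day 4. Il34 fell by 1.55 in TEC (adjusted p = 0.00399), its nonTEC effect of 0.67 did not pass (adjusted p = 0.406), and the difference was -2.22 (SE 0.49, adjusted p = 0.00835). The limma test uses 1 spread per gene over both fractions, and Il34 varied more between the TEC arrays of a group than between those of nonTEC.

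Orm1, the acute phase protein orosomucoid, fell by 0.99 in TEC (adjusted p = 0.000177). Its TEC arrays lay at 9.33, 9.45 and 9.80 in sham against 8.24, 8.07 and 8.72 in castrated mice at day 4, and at 8.94, 9.28 and 9.26 against 8.44, 8.33 and 8.32 at day 7, without overlap. In nonTEC all its arrays lay between 4.46 and 5.02, under the floor. The difference was -0.97 (SE 0.21, adjusted p = 0.0081), and it was still called without the 3 TEC arrays described next and without castrated nonTEC day 4 array 1. Wfdc12, a secreted protease inhibitor of epithelia, fell by 1.68 in TEC and had a difference of -1.89 (adjusted p = 0.036). Krt19 fell by 0.84 in TEC, with castrated arrays between 8.39 and 8.63 and sham arrays between 8.91 and 9.87, and had a difference of -1.13 (adjusted p = 0.0287). Both calls were lost when single arrays of several groups were left out.

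The lower genes of largest size rested on 3 arrays. Hnrnpk, an RNA-binding protein of the splicing machinery, lay in TEC at 8.62, 8.69 and 8.46 in sham and 8.07, 4.68 and 4.93 in castrated mice at day 4, and at 8.56, 8.80 and 8.92 against 8.08, 8.0 and 5.32 at day 7. Castrated day 4 arrays 2 and 3 and day 7 array 3 were more than 2 log2 units below each of the other 9 TEC arrays compared, and the other castrated arrays were less than 1 unit below sham. The difference was -2.47 (SE 0.73, adjusted p = 0.0393). The same 3 arrays were the lowest for Akr1c12 (-2.63), the histone chaperone subunit Rbbp7 (-2.60), Hmgb2 (-2.47), Hnrnpa2b1 (-2.40), Ube2l6 (-2.31), Cbx3 (-1.90) and Supt16 (-1.89). They were also the lowest for Ada, adenosine deaminase, which had a difference of -2.03 (adjusted p = 0.00944), or -1.37 without them (adjusted p = 0.124). The same holds for Nqo1, a quinone reductase, at -1.71 (adjusted p = 0.0482), or -1.02 without them (adjusted p = 0.351), which lost its call in 20 of the 23 fits that left out 1 array. These 3 arrays were the 3 lowest of the 12 TEC arrays for 40 of the 103 lower genes with the larger effect in TEC (38.8%), against 7.81% of all genes, and the 3 highest for 91 of the 200 higher genes with the larger effect in TEC (45.5%), against 10.7%. Both sets were chosen by effects that use these arrays, so the shares describe the calls and test nothing. Among the higher genes named above, the same 3 arrays held the 3 highest TEC values for Carmil3, Il6st, Egfr, Axin2 and Esr1. Other probes of Hnrnpk and Hnrnpa2b1 were dim and gave between 0.03 and 0.23, while 2 other probes of Rbbp7 gave -2.59 and -2.40. A further, dim probe of Rbbp7 gave -0.34. The second probes of Supt16 and Cbx3 were above the floor, at mean levels of 7.44 and 7.42, and gave only -0.32 and -0.40. The second probe of Ube2l6 gave -1.48.

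Low values of these genes were not limited to castrated mice. Unoperated middle-aged TEC, which enters no part of the difference, had Hnrnpk at 8.48, 8.47 and 4.89, Rbbp7 at 8.52, 8.32 and 4.66, and Ube2l6 at 7.31, 7.99 and 4.44. Array 3 of that group was thus far below the other two, and for Hnrnpk it lay within the range of the 3 castrated arrays. It was the lowest of the 12 TEC arrays outside the comparison for each of the 10 genes named above, Ada and Nqo1 included. The pan-leukocyte mean of TEC was also lowest, among the 12 arrays compared, on the same 3 castrated arrays, at 9.71, 9.89 and 10.08 against 10.27 or more on the others. In the unoperated middle-aged group it was 10.08, 9.90 and 10.17, highest on array 3. The part of blood cell content in the low values was not tested.

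Without the 3 castrated TEC arrays 142 genes were called, 116 of them among the 513, and all 513 kept their sign. The calls kept were 31 of the 112 and 28 of the 200 higher genes, and 40 of the 98 and 17 of the 103 lower genes, where in each case the first set has the larger effect in nonTEC. Without castrated nonTEC day 4 array 1 as well, 92 genes were called, 78 of them among the 513. Among the named genes those still called then were Angptl7, Hpca, Slc47a1, Per2, Capn6, Bmper, Pkp2, Slc6a13, Popdc2, Zfpm2 and Gpx3 with a higher effect, and Vav1, Wfdc12, Rac2, Aurka, Krt18, Krt17, Rrm2, Prc1 and Orm1 with a lower one. Cdk1 was at -1.21 (adjusted p = 0.0521).

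Of the 40 gene lists described, the cell cycle, pan-leukocyte and thymocyte lists had the largest medians in size. Below zero followed the tuft cell list with 2 of 9 genes lower and a median of -0.84, the myeloid and granulocyte list with 1 of 12 lower and -0.75, and MHC class II presentation with 1 of 10 lower and -0.63. Medullary epithelial maturation had 1 of 20 lower and a median of -0.39, and cortical epithelial function 1 of 10 and -0.37. Cholesterol synthesis and uptake was split on the brightest probes. The epoxidase Sqle (-0.79, adjusted p = 0.0287) and Fdps (-0.54, adjusted p = 0.0488) were lower, while Lss, which closes the sterol rings, was higher (0.84, adjusted p = 0.0145). The nonTEC arrays of Lss, between 5.80 and 6.72, were under the floor, and its other, dim probe gave -0.05. The sign of Lss also turned with unoperated controls, as given below. Dimmer probes gave -2.14 for Sqle and 0.25 for Fdps. Of 23 extracellular matrix genes 1 was lower, Col18a1 at -0.56 (adjusted p = 0.044), although the median of the list was 0.35. The fibroblast list, at -0.06, the endothelial list, at -0.17, and the cytosolic ribosomal proteins, at 0.07, had no gene called in 16, 15 and 26 tested. The same held for the B-lineage and plasma cell list, at -0.54 with 7 tested, and the erythroid list, at 0.14 with 5 tested. The share called was 22.2% in the tuft cell list, 10% in MHC class II presentation and 10% in cortical epithelial function. It was 8.33% in the myeloid, 5% in the medullary and 4.35% in the extracellular matrix list, and 30% in the cholesterol list. Of all genes tested 6.04% were called. The lists were chosen with earlier results of these data known.

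**Figure D5:**
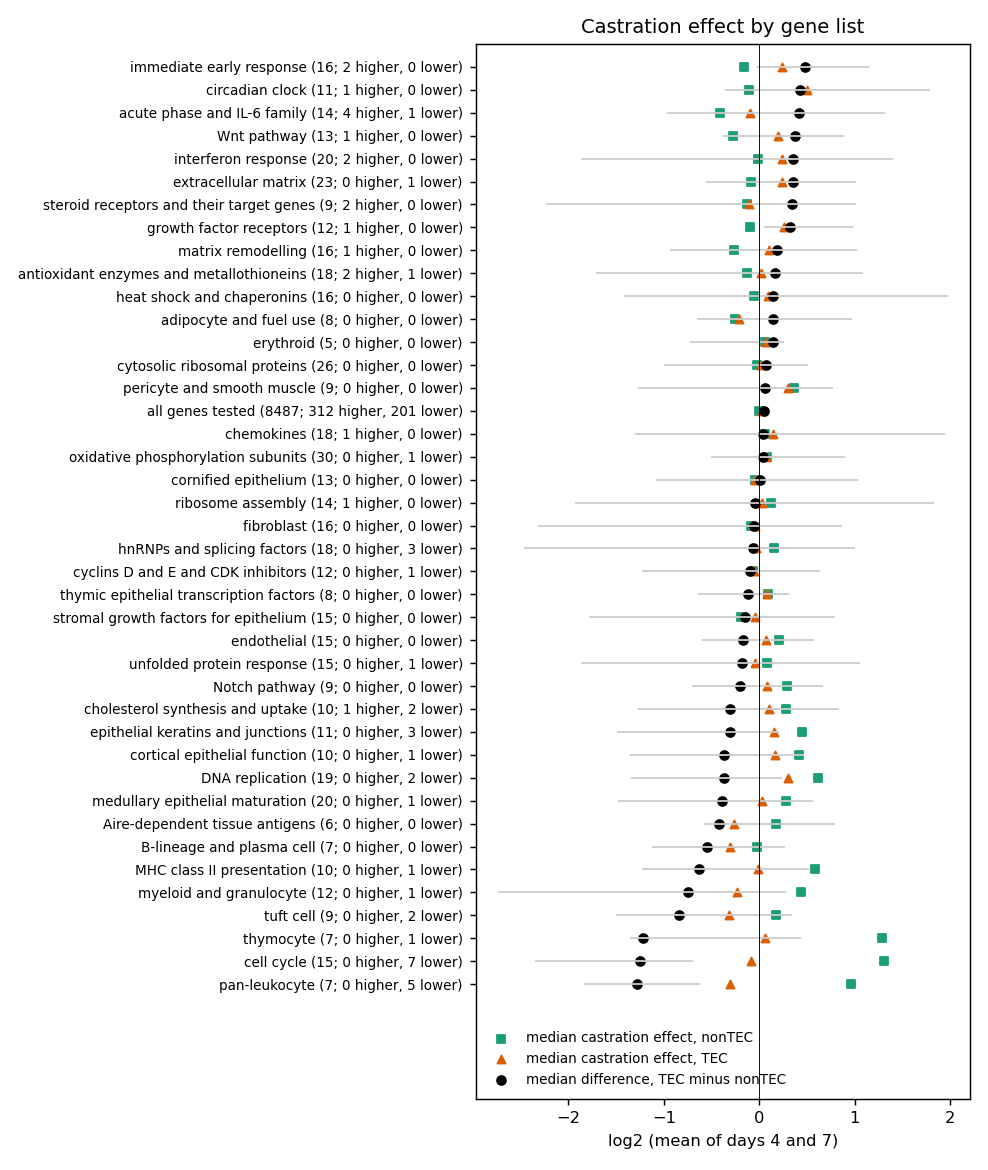
Median castration effect of each gene list in log2 units (x axis), mean of days 4 and 7, in nonTEC (squares) and TEC (triangles), and the median difference, TEC minus nonTEC (circles), with grey lines from the lowest to the highest difference of the list; labels give the number of genes tested and how many were called higher or lower. The cell cycle, pan-leukocyte and thymocyte lists have nonTEC medians of 1.31, 0.96 and 1.28 and TEC medians of -0.08, -0.30 and 0.06.

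Genes central to epithelial function, looked up in any case, mostly did not pass. Aire had a difference of -0.75 (95% confidence interval -1.38 to -0.12, adjusted p = 0.127), but a second probe gave 0.81. The difference was -0.60 (-1.54 to 0.34) for Psmb11, the thymoproteasome subunit of cortical cells, and 0.47 (-0.58 to 1.51) for Prss16, the thymus protease. A dimmer probe of Prss16 gave -0.87. Fezf2 was at -0.38 (-0.85 to 0.10) and Cd40, a receptor for signals from T cells, at -0.40 (-0.80 to -0.01). Other probes of Cd40 gave -0.78, -0.49 and 0.05. Cd80, a costimulatory ligand, fell by 1.33 in TEC (adjusted p = 0.0054), but its difference of -0.89 had an adjusted p of 0.207. Ccnd1, a G1 cyclin, rose by 0.44 in nonTEC (adjusted p = 0.00508), with a difference of -0.41 (adjusted p = 0.0596).

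Growth factors of the stroma and their receptor on epithelium gave no call on their brightest probes either. The keratinocyte growth factors Fgf7, at 0.78 (0.13 to 1.43), and Fgf10, at 0.80 (-0.30 to 1.89), had wide intervals and TEC levels under the floor. Their receptor Fgfr2 was at 0.06 (-0.25 to 0.37), which leaves no room for a difference beyond 0.37 at this confidence. Bmp4 was at 0.11 (-0.51 to 0.73), Wnt4 at 0.11 (-0.38 to 0.60), Wnt5a at 0.67 (-0.04 to 1.37), Igf1 at 0.08 (-0.42 to 0.58), Il7, a survival factor of thymocytes, at 0.19 (-0.22 to 0.61), Cxcl12 at -0.42 (-1.22 to 0.39) and Fgf21 at -0.17 (-0.62 to 0.27). Other probes disagreed in part: those of Cxcl12 gave -2.31 and -2.18 and another of Igf1 gave -0.51, all outside the intervals printed here. Of the 28 genes looked up in any case 22 could be tested.

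Against sham arrays more genes were called at day 4 than at day 7, but this order depended on the arrays used. With unoperated middle-aged arrays in place of sham arrays it was 22 genes at day 4 and 432 at day 7. Without sham TEC day 4 array 3, castrated TEC day 4 arrays 2 and 3 and middle-aged TEC array 3 it was 2 and 36. With all arrays and sham controls 775 genes (9.13%) were called at day 4, 483 higher (5.69%) and 292 lower (3.44%). At day 7, 2 were called (0.0236%), Hpca at 2.24 and Slc6a13 at 2.35, both with an adjusted p of 0.0137, while 642 had an unadjusted p under 0.05. Of the 513 genes called on the mean of both days, 369 were also called at day 4, and 309 of the 312 higher and 194 of the 201 lower genes had the same sign at both days. The median went from 1.10 at day 4 to 0.63 at day 7 over the higher genes and from -1.39 to -0.68 over the lower ones. The cell cycle list had medians of -2.11 and -0.49, and Cdk1 differences of -3.78 and -0.91. Yet the change from day 4 to day 7 passed the limma test for no gene: the smallest adjusted p was 0.251, and 760 genes had an unadjusted p under 0.05. Day 7 rests on 2 nonTEC sham arrays, and the 2 days share no arrays. The day 4 count was 1688 without castrated TEC array 1, 315 and 360 without arrays 2 and 3 of that group, 324 and 469 without castrated nonTEC arrays 1 and 2, and 425 and 411 without nonTEC sham arrays 2 and 3. The day 7 count was 0 without castrated TEC day 7 array 3 or either nonTEC sham array of day 7, and 14 without sham TEC day 4 array 3.

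The unoperated mice give a readout that the difference did not use: middle-aged (9 to 12 months) against young (5 to 6 weeks) arrays, 3 a group and fraction. In nonTEC, 12.7% of all genes tested were higher and 13.1% lower in middle-aged mice. Of the 112 higher genes with the larger effect, a negative one, in nonTEC, 65 (58%) were higher in middle-aged nonTEC and 2 lower, with a median of 0.71. Of the 98 lower genes with the larger, positive effect in nonTEC, 79 (80.6%) were lower in middle-aged nonTEC and 3 higher, with a median of -1.42. Per2 was higher by 2.56 (adjusted p = 1.26e-07), Slc47a1 by 2.32 (adjusted p = 1.23e-07), Pkp2 by 1.53, Hpca by 1.42, Angptl7 by 1.41 and Hp by 1.39 in middle-aged nonTEC. Cdk1 was at -3.0 there (adjusted p = 3.94e-06), Krt17 at -2.78, Rac2 at -2.47, Prc1 at -1.99 and Krt18 at -1.5. These genes thus stood, with age, on the opposite side from their movement after castration in nonTEC.

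In TEC the comparison depended on middle-aged array 3, the array with the low values described above. Of the 200 higher genes with the larger effect in TEC, 47 (23.5%) were higher in middle-aged TEC and 5 lower, against 13.2% and 6.26% of all genes. Without that array, a setting added after seeing the data, 30 (15%) were higher and 13 (6.5%) lower, against 14.4% and 12.3% of all genes, so that the share higher was near that of all genes. Of the 103 lower genes with the larger effect in TEC, 14 (13.6%) were lower and 6 higher in middle-aged TEC, or 14 and 13 without that array. The contrast with young mice shares no array with the castration difference, but all arrays share 1 estimate of the spread, and the part of cell content in the age shift was not tested.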

How the data were processed

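RNA from sorted thymic stromal cells was measured on Illumina arrays. The values used are log2 intensities as deposited, already normalized. Their log base is given nowhere and was read as 2 from the range of the values. Per the submitters' processing notes limma was used, in a version and for steps not given in the sources used here. TEC and nonTEC arrays had different quantiles (medians 6.68, and 6.81 to 6.82), so the authors are taken to have normalized each fraction separately. The difference of 2 within-fraction contrasts was therefore used, with no further scaling.

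The 20825 probes with 1 listed gene in the platform annotation were used, each gene by its probe of highest mean. The tested genes entered a limma fit (version 3.58.1, under R 4.3.3) with a trended prior variance, over all 41 arrays of 14 groups, which left 27 residual degrees of freedom, with Benjamini-Hochberg adjustment over the 8487 genes. The script was tested on simulated data. The median SE of the difference was 0.23, and its precision is set by how many arrays there are. The lowest correlation within a group was 0.922 in castrated TEC at day 4 and 0.971 or more in nonTEC, and no 2 arrays were identical. Replicate numbers did not pair arrays: same-numbered TEC and nonTEC arrays had a median correlation of deviations of 0.01.

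Named genes are the 14 largest differences in each direction with 1 sign at both days, up to 4 called members of each of the 40 lists, and 28 genes looked up in any case; clone names were left out. Genes named outside this rule (other list members near the threshold, Osmr, Per1, Cry2, Arntl, Socs3, Stat3, Klf4, Junb, Fos, Cdca3, Cdca8 and Cenpa among them) were chosen after their values were seen. Members and lists were chosen with earlier results of these data known. Alternatives covered the filter, scaling, probes, array weights, controls, covariates, the replicate block and single arrays. RefSeq promoters were matched by symbol.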

Additional observations from a re-analysis of the deposited data

Results flagged for a closer look

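The castration effect differed between TEC and nonTEC by the test of the difference itself for 513 genes on the mean of both days, for 775 genes at day 4 and for 2 genes at day 7. Genes with values in 1 fraction only could not enter the difference and are given here as values. Of 513 such genes tested in TEC, 44 were called between castrated and sham arrays (8.58%, 19 higher and 25 lower). They include Grp, which encodes gastrin-releasing peptide, with a mean of 9.63 in castrated and 6.97 in sham TEC (2.66, adjusted p = 0.0136), and Pomc, the precursor of corticotropin, at -1.17 (adjusted p = 0.0283). Of 129 such genes tested in nonTEC, 20 were called (15.5%, 3 higher and 17 lower). They include the T cell adhesion molecule Cd2 at 1.05 (adjusted p = 0.033), the chemokine scavenger Ackr3 at -1.27 (adjusted p = 0.0223) and the matrix protein Svep1 at -0.98 (adjusted p = 0.0223). These tests, by limma within each fraction, were added after seeing the data, and nothing about the other fraction follows from them.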

How the results depend on the processing

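The main limits are the small groups, the blood cell markers on the arrays, whose source was not tested, and the 3 castrated TEC arrays. Counts are given for the mean of both days, then day 4, day 7 and the change between days, which were 513, 775, 2 and 0 as reported. Array weights gave 2963, 3023, 1102 and 1940. Unoperated middle-aged arrays in place of sham arrays gave 182, 22, 432 and 309; of the 182, 42 were among the 513, and 436 of the 513 kept their sign. Pooling sham arrays over days gave 1288 at day 4, 64 at day 7 and 309 for the change. The thymocyte mean as a covariate gave 222 and 336 on the mean and at day 4. Leaving out sham TEC day 4 array 3, castrated TEC day 4 arrays 2 and 3 and middle-aged TEC array 3 gave 290, 2, 36 and 1, with 222 of the 290 among the 513. With the filter at the 65th percentile no gene was called at day 7, with genes above the floor in both fractions 1, with a weight per fraction 4, and with only the 23 arrays compared or the fibroblast covariate 19. The mean of probes, and each probe taken alone, gave 1 gene for the change between days. 

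Alternatives chosen after seeing the data were the following. Without castrated TEC day 4 arrays 2 and 3 and day 7 array 3 the first 3 counts were 142, 33 and 0, and without castrated nonTEC day 4 array 1 as well 92, 3 and 0. The pan-leukocyte mean as a covariate with a slope per fraction gave 0, 0 and 0, with 601, 334 and 557 genes at an unadjusted p under 0.05 in limma. The epithelial mean gave 0, 0 and 0, with 796, 762 and 781. The thymocyte mean with a slope per fraction gave 16, 3 and 0. With 1 array left out at a time the counts ranged from 214 to 1105, from 315 to 1688, from 0 to 14 and from 0 to 7, the last being 7 without castrated nonTEC day 4 array 3 and 2 without castrated TEC day 4 array 1.

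The replicate number as a fixed block gave 557, 799, 2 and 0, and as a random block 502, 752, 2 and 0 at a consensus correlation of -0.006. Same-numbered castrated and sham arrays had a median correlation of deviations of 0.03 (-0.08 to 0.21), and 3 of 11 pairs were over 0.1, so the numbers were not read as pairs.

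Of the 73 named genes past the threshold, 62 kept their sign under every setting run, and 18 kept their call under every setting without a covariate, a block or another control. The sign turned for Tsc22d3 with the mean of probes (-0.28). With unoperated controls it turned for Sdf2l1 (0.0536), C1qb (0.0058), Ifit2 (-0.0347), Axin2 (-0.10) and Lss (-0.48). With the pan-leukocyte covariate it turned for Lrmp (0.20), Cd52 (0.0452), E2f2 (0.29), Dntt (0.0932) and Mcm5 (0.0893), and with the thymocyte covariate per fraction for E2f2 (0.0036) and Dntt (0.0427). The cause of these changes was not tested.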
